A study of Mus musculus with 24 samples.

Results

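S100a8, S100a9, Lcn2, Ngp, Camp and Ltf, genes for alarmins and granule proteins of neutrophils, were followed in the hearts of mice lacking Xinβ (Xirp2), an actin-binding protein of the cardiac intercalated disc. The 6 genes were chosen by name, because S100a8 rose in Xinβ KO hearts, and they were found by matching Ensembl identifiers to mouse symbols in the 2 deposited tables. Of the 6, 5 were listed among the 15667 genes of the uninjected hearts and the same 5 among the 15327 genes of the injected hearts. Camp, the gene of cathelicidin, was listed in neither and is not analysed here.

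RNA of heart tissue labelled as apex, taken at postnatal day 7.5 (P7.5), was sequenced in 24 libraries, 4 in each of 6 groups. The study's methods name the tissue as cardiac ventricles instead. The uninjected groups were WT and Xinβ KO hearts, read in 50 bp single-end mode. In the other 4 groups, WT and Xinβ KO pups had received AAV9, an adeno-associated virus that reaches the heart, on postnatal day 1, carrying GFP or YAP S127A, a form of the Hippo pathway effector YAP that escapes an inhibitory phosphorylation, and their libraries were read in 150 bp paired-end mode. These groups are called WT/GFP, Xinβ KO/GFP, WT/YAP S127A and Xinβ KO/YAP S127A. The knockout was germline, so blood cells and bone marrow carried it too, whereas both viral genes were driven by a cardiac troponin T promoter and act in heart muscle cells. The mice had a C57BL/6J background. Per the study's methods, each group mixed males and females, and the controls were littermates. Uninjected and injected hearts therefore differed in virus, read type and sequencing run, and levels are compared only within a table. The labels give each library an identifier of its own but do not state that each came from a separate animal, so the p-values measure the spread between these libraries.

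Neutrophils are short-lived white cells made in the bone marrow, and they store their antimicrobial proteins in granules built at successive stages of maturation. S100A8 and S100A9 form the calcium-binding heterodimer calprotectin, which makes up much of the cytosol of neutrophils and acts outside the cell as an alarmin through TLR4 and RAGE. Lipocalin 2, which starves bacteria of iron by binding siderophores, lactoferrin (Ltf), neutrophilic granule protein (Ngp) and cathelicidin belong to the secondary granules. Lcn2 is also made by epithelium and other tissues during inflammation, so it is not a marker of neutrophils alone.

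S100a8 (ENSMUSG00000056054) lies on chromosome 3 from 90668978 to 90670035 of GRCm38, on the plus strand, and S100a9 on the minus strand from 90692632 to 90695721, 22.6 kb away. Camp, Ngp and Ltf lie on chromosome 9, with 570.1 kb between Camp and Ngp and 596.3 kb between Ngp and Ltf. Lcn2 is on chromosome 2 from 32384633 to 32388252. The promoters of S100a8, S100a9 and Ngp are shown because these genes of 2 chromosomes moved together across the libraries. Each holds 250 bases before and 50 after the start of the gene in RefSeq (GRCm38.p6), and capitals mark matches to TTNNGNAA, a form of the C/EBP site, or to GAGGAA, a core of the PU.1 site, on either strand. C/EBP proteins and PU.1 are transcription factors of granulocyte development.
S100a8, chr3:90668821-90669120, plus strand: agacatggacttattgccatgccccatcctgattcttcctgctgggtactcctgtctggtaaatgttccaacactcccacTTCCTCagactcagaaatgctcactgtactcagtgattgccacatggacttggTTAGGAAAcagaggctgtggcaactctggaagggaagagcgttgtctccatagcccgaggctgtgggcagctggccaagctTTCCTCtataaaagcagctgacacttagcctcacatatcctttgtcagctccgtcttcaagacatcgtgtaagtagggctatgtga
S100a9, chr3:90695672-90695971, minus strand: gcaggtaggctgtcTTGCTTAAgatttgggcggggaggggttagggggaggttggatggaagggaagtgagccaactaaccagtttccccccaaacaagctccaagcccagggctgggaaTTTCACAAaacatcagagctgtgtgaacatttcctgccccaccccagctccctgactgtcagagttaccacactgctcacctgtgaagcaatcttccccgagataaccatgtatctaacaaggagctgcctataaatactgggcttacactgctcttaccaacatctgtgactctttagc
Ngp, chr9:110419558-110419857, plus strand: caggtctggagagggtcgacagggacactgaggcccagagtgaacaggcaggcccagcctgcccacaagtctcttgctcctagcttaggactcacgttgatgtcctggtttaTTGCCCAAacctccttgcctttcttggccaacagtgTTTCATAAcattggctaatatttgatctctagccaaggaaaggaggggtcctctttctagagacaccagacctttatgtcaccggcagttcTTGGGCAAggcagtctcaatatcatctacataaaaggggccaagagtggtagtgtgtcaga

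At least 1 match to TTNNGNAA stood in the promoters of all 5 listed genes, and in 40.7% of the 32851 promoters of the reference. GAGGAA was matched in S100a8, Lcn2 and Ltf and in 28.3% of all promoters. The Camp promoter held neither. TATAAA, the TATA box, was found in S100a8 and S100a9 and in 13.6% of all promoters, ACANNNTGT, a form of the glucocorticoid receptor site, in S100a8 and Lcn2 and in 6.85%, and neither the NF-kB motif (1.63%) nor the STAT form TTCNNNGAA (8.30%) was found in any of the 6. No matches overlapped in the promoters shown. A match describes letters and is not evidence of binding.

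The values are in CPM as deposited, the reads on a gene relative to the scaled total of its library. The libraries held 20490875 to 31154155 reads on genes in uninjected and 15015038 to 19444404 in injected hearts, as recovered from the values, so 1 read was worth about 0.033 to 0.050 CPM and 0.0539 to 0.0656 CPM. Xirp2, the targeted gene, lay between 0 and 0.972 CPM in all Xinβ KO libraries and between 56.0 and 168 CPM in all WT libraries. Read numbers are approximate, since the gene counts were derived from transcript coverage. Every listed gene exceeded 0.9 CPM in at least 4 libraries of its table. A gene seen only in Xinβ KO hearts could therefore be listed only if it was high there, and its listing favoured a difference from WT. Of the genes of the uninjected table, 582 (3.71%) were listed only through the Xinβ KO libraries, among them S100a8, Lcn2, Ngp and Ltf. Of the injected table, 162 (1.06%) were listed only through Xinβ KO/GFP, among them Lcn2 and none of the other 4.

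In uninjected hearts, all 5 genes were higher in every Xinβ KO library than in any WT library, a description of the contrast from which S100a8 was chosen and not a test. S100a8 was at 36.4, 21.05, 28.3 and 17.0 CPM in Xinβ KO libraries 1 to 4 and at 1.12, 3.37, 0 and 2.43 CPM in WT. S100a9, its partner in calprotectin, was at 56.7, 31.8, 45.0 and 24.7 CPM against 3.04, 5.55, 3.73 and 3.67 CPM. The means were 14.8-fold apart for S100a8 (25.7 ± 8.54 against 1.73 ± 1.48 CPM, SD, n = 4) and 9.89-fold for S100a9 (39.6 ± 14.2 against 4.00 ± 1.08 CPM). For both genes library 1 of Xinβ KO was the highest and library 4 the lowest of the group.

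Lcn2 was at 6.41, 3.95, 7.59 and 3.06 CPM in uninjected Xinβ KO hearts and at 0.109, 0.208, 0.230 and 0.247 CPM in WT. The WT libraries, with about 20 reads in all, were at the edge of detection, and the 4 Xinβ KO libraries were all well above it. Ngp was at 6.02, 2.87, 4.60 and 3.63 CPM against 0.579, 0.451, 0 and 0.865 CPM. Ltf was at 5.44, 2.34, 3.70 and 1.18 CPM against 0.398, 0.312, 0 and 0.742 CPM, the narrowest gap of the 5. Xinβ KO library 1 was highest for 4 of the 5 genes, and library 4 was lowest for 4. Groups did not overlap, with Xinβ KO higher, for 7.99% of all listed genes, and 3.22% were called higher at an adjusted p under 0.05 by limma. The 5 genes passed that rule as well, and nothing is read from it, since 4 of them were listed through these libraries and S100a8 was chosen on them. Without Xinβ KO library 4, the median log2 difference of the 5 was 2.51, against 2.32 with it.

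**Figure D1:**
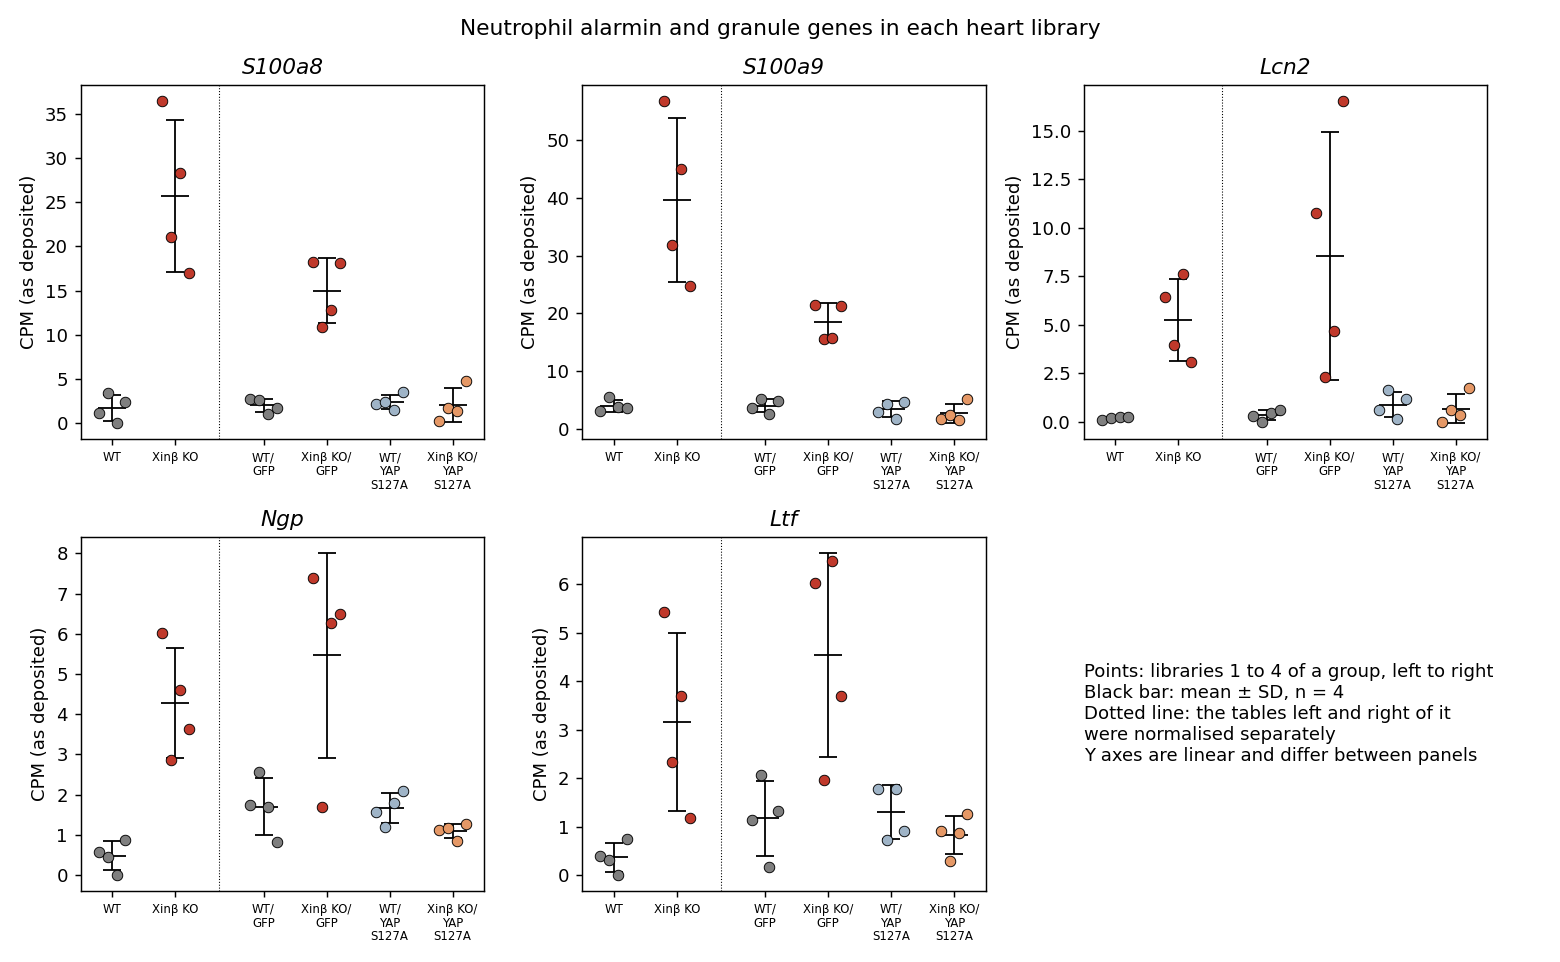
CPM (y axes, linear) of S100a8, S100a9, Lcn2, Ngp and Ltf in the 24 libraries, by group (x axes), with each group's mean ± SD. The Xinβ KO and Xinβ KO/GFP libraries are high, while Xinβ KO/YAP S127A libraries lie near the level of WT/GFP and WT/YAP S127A, and library 2 of Xinβ KO/GFP lies inside the WT/GFP range for Ngp and Ltf.

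The injected hearts asked whether the rise was also present after a control virus. The genes were chosen with results of both tables known, so the tests below describe these libraries and are not independent evidence of the rise. All 5 genes were higher in Xinβ KO/GFP than in the WT/GFP hearts at an adjusted p under 0.05 (limma on log2(CPM + 1), adjusted over all 15327 genes), a call that 6.5% of all genes received in that direction. Lcn2 was listed through the Xinβ KO/GFP libraries alone, which favoured a difference. Differences on this scale understate the change of genes with low values. S100a8 was at 18.2, 10.9, 12.8 and 18.1 CPM in the Xinβ KO/GFP libraries 1 to 4 and at 2.69, 2.62, 1.09 and 1.7 CPM in WT/GFP. The groups were far apart, with a log2 difference of 2.41 (standard error 0.35, adjusted p = 0.00035 from limma) and means 7.42-fold apart. S100a9 was at 21.4, 15.6, 15.8 and 21.3 CPM against 3.59, 5.13, 2.61 and 4.77 CPM. Its log2 difference was 1.97 (standard error 0.28, adjusted p = 0.00036 from limma), and it too separated every library of the groups.

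The secondary granule genes varied more among the Xinβ KO/GFP hearts. Lcn2 was at 10.7, 2.29, 4.68 and 16.5 CPM in the Xinβ KO/GFP libraries 1 to 4 and at 0.299, 0, 0.435 and 0.603 CPM in WT/GFP. The groups did not overlap (log2 difference 2.58, standard error 0.43, adjusted p = 0.0011 from limma, and 4.65 in edgeR), a gap that the listing of Lcn2 favoured. Ngp was at 7.39, 1.7, 6.26 and 6.5 CPM against 1.73, 2.57, 1.69 and 0.822 CPM. Library 2 of Xinβ KO/GFP lay inside the WT/GFP range, and the log2 difference of Ngp was 1.17 (standard error 0.29, adjusted p = 0.013 from limma). Ltf was at 6.02, 1.96, 6.49 and 3.69 CPM against 1.136, 2.06, 0.163 and 1.31 CPM, again with library 2 inside the WT/GFP range (log2 difference 1.34, standard error 0.32, adjusted p = 0.0100 from limma). Without Xinβ KO/GFP library 1 the call of Ngp was lost, at an adjusted p of 0.051 from limma, and the other 4 genes were called in each of the 16 fits that left out a library. Leaving Lcn2 aside, 2 of the other 4 genes, S100a8 and S100a9, had groups that stood clear of each other, a state that 7.31% of all genes showed in that direction.

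All 5 genes were lower in Xinβ KO hearts given AAV9-YAP S127A than in those given AAV9-GFP. S100a8 was at 0.282, 1.75, 1.37 and 4.80 CPM in the Xinβ KO/YAP S127A libraries 1 to 4, and S100a9 was at 1.64, 2.34, 1.54 and 5.15 CPM. All of these were below every Xinβ KO/GFP library, and the log2 differences were -2.57 (standard error 0.35, adjusted p = 0.00018) and -2.50 (standard error 0.28, adjusted p = 4.2e-05), both from limma. Lcn2 was at 0, 0.584, 0.343 and 1.72 CPM (log2 difference -2.34, standard error 0.43, adjusted p = 0.0019 from limma). Ngp was at 1.13, 1.17, 0.858 and 1.26 CPM (log2 difference -1.5, standard error 0.29, adjusted p = 0.0027 from limma). Ltf was at 0.902, 0.292, 0.858 and 1.26 CPM (log2 difference -1.54, standard error 0.32, adjusted p = 0.0041 from limma). A fall of Lcn2 from Xinβ KO/GFP was favoured by its listing through that group. In none of the other 4 did the groups overlap, a state that 8.55% of all genes showed in that direction, and all 4 were called lower, as were 6.96% of all genes. The 5 calls held in each of the 16 fits without a library. Library 4 of Xinβ KO/YAP S127A was the highest of its group for all 5 genes, as library 2 of Xinβ KO/GFP was the lowest of its own for all 5. This comparison uses the same Xinβ KO/GFP libraries as the one before it.

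Xinβ KO/YAP S127A was also set beside WT/GFP, and no difference of these genes was called. The log2 difference of S100a8 was -0.16, with a 95% confidence interval from -0.89 to 0.57, and that of S100a9 was -0.52, from -1.12 to 0.08. Those of Lcn2, Ngp and Ltf were 0.24 (-0.67 to 1.15), -0.33 (-0.94 to 0.29) and -0.19 (-0.86 to 0.48). None of the 5 was called by limma, where 4 of 15327 genes (0.0261%) were called in either direction and 924 had an unadjusted p under 0.05. The upper ends of the 5 intervals, from 0.08 to 1.15, lay below the rise estimated for the same gene in Xinβ KO/GFP, a comparison that shares the WT/GFP libraries. At this spread, smaller remaining differences were not detectable.

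In WT hearts, no change of the 5 genes with YAP S127A was called. S100a8 was at 2.15, 2.41, 1.53 and 3.54 CPM in WT/YAP S127A libraries 1 to 4, S100a9 at 2.91, 4.34, 1.66 and 4.66 CPM, and Lcn2 at 0.593, 1.63, 0.128 and 1.18 CPM. Ngp was at 1.56, 1.21, 1.79 and 2.1 CPM and Ltf at 1.78, 0.724, 1.79 and 0.919 CPM. All 5 genes overlapped the WT/GFP libraries, whereas groups did not overlap for 2.21% of all genes with WT/YAP S127A higher and 2.15% with it lower. The log2 differences ran from -0.22 for S100a9 to 0.45 for Lcn2, with the widest interval that of Lcn2, from -0.46 to 1.35. No gene at all was called in this comparison by limma, with 1075 genes at an unadjusted p under 0.05, 0 called by edgeR and 13 by DESeq2.

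The difference in the effect of YAP S127A between the genotypes was itself tested, and it was called for S100a8, S100a9, Ngp and Ltf. It was also called for Lcn2, whose listing through Xinβ KO/GFP favoured that result. The interaction, the log2 difference made by YAP S127A in Xinβ KO minus that in WT hearts, was -2.75 for S100a8 (standard error 0.49, adjusted p = 0.0037), -2.27 for S100a9 (0.40, adjusted p = 0.0036) and -2.79 for Lcn2 (0.61, adjusted p = 0.013), all from limma. It was -1.51 for Ngp (standard error 0.41, adjusted p = 0.036) and -1.67 for Ltf (0.45, adjusted p = 0.034), and 3.8% of all genes were called in this direction. The calls of Ngp and Ltf were near the threshold and were kept in 5 and 6 of the 16 fits that each left out a library, in which the estimates stayed between -1.88 and -1.33 for Ngp and between -1.94 and -1.40 for Ltf.

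**Figure D2:**
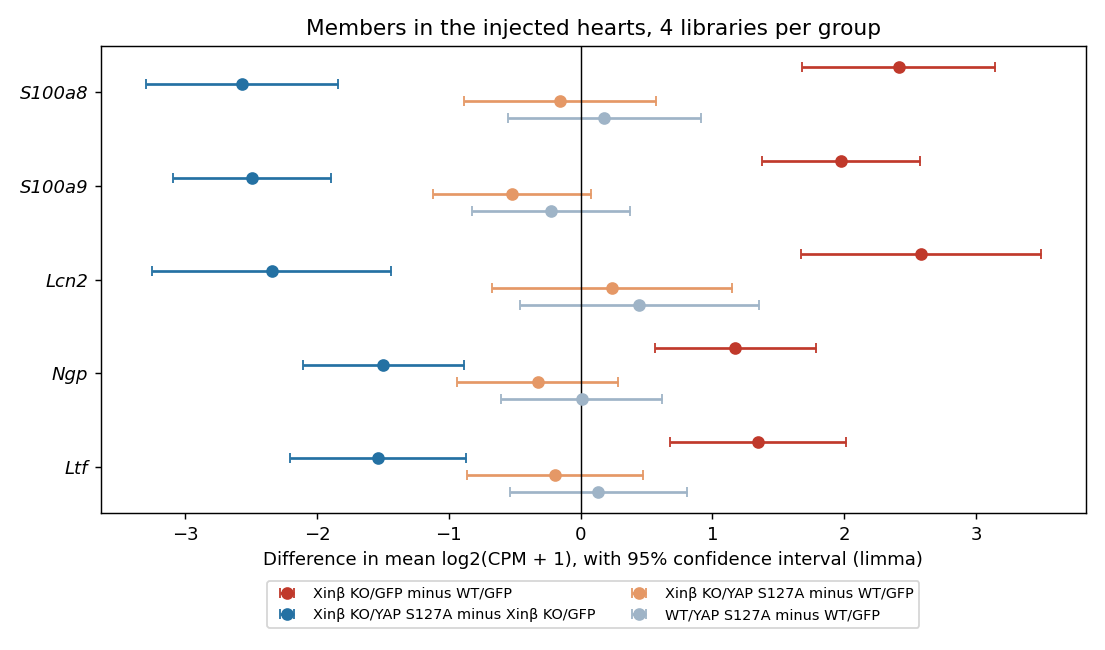
Difference in mean log2(CPM + 1) between injected groups (x axis) for the 5 listed genes (y axis), with 95% confidence intervals from limma, n = 4 libraries per group. The intervals of Xinβ KO/GFP minus WT/GFP lie above 0 and those of Xinβ KO/YAP S127A minus Xinβ KO/GFP below it, while the intervals of the other comparisons include 0.

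The 5 genes differed in level. Per kb of exon, S100a9 was the most abundant in every group, with a mean of 75.8 CPM per kb in uninjected Xinβ KO and 35.5 in Xinβ KO/GFP hearts, followed by S100a8 with 37.0 and 21.6. Ngp was at 3.50 and 4.47, Lcn2 at 2.004 and 3.263 and Ltf at 0.917 and 1.32 CPM per kb in the same groups. The ratio of S100a8 to S100a9, taken in CPM, lay in a narrow range where both genes were high, at 0.629 to 0.689 in the 4 uninjected Xinβ KO libraries and at 0.699 to 0.852 in Xinβ KO/GFP, and it ranged from 0.172 to 0.933 in Xinβ KO/YAP S127A, where few reads lay behind it.

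Across libraries the 5 genes followed each other. Pearson correlations of log2(CPM + 1) between pairs of them were 0.925 to 0.988 over the 8 uninjected libraries and 0.708 to 0.962 over the 16 injected ones, the lowest between Lcn2 and Ltf. These libraries fall into high and low groups by genotype and virus, which any gene that differs between the groups shares. The genes most like S100a8 in the uninjected hearts were Tmed10, Gm47155, Ngp, Arl4a and Gm43534 (r = 0.980 to 0.970 over 8 libraries), of which only Ngp is in the neutrophil lists. In the injected hearts they were S100a9 (r = 0.962), BC100530 (0.962), Mcrs1, Mgst1 and Vdr (0.943 to 0.937, over 16 libraries). BC100530 belongs to the stefin A family of cysteine protease inhibitors, which is abundant in neutrophils.

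Whether other neutrophil genes moved with S100a8 was followed in lists written from general knowledge. Of 25 neutrophil surface and cytosol genes, 13 were listed in injected hearts, and 8 were higher and 0 lower with Xinβ KO/GFP set against WT/GFP (median log2 difference of the 13 1.00, against -0.01 over all genes). Since 7 of the 13 were listed only through Xinβ KO/GFP, which favoured a rise, the count is no support, and of the other 6 genes 3 rose, where 6.5% of all genes did. Slfn4, a Schlafen family gene of myeloid cells, was the highest in difference, at 3.07 to 5.71 CPM in Xinβ KO/GFP and 0 to 0.478 CPM in WT/GFP (log2 difference 2.11, adjusted p = 7.8e-06 from limma), and it was listed only through Xinβ KO/GFP. BC100530 was at 3.4 to 6.96 CPM against 0.489 to 1.48 CPM (log2 difference 1.65, adjusted p = 0.00043 from limma) and did not depend on Xinβ KO/GFP for its listing. The other 2 that rose and did not depend on it were Hdc, for histidine decarboxylase, and Stfa1, named after their values were seen. BC100530, Stfa1, Stfa2, Stfa3 and Stfa2l1 are near-identical copies whose reads the counting could divide wrongly, so 5 of the 8 calls may not be separate.

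Other neutrophil genes were not called in Xinβ KO/GFP relative to WT/GFP. Csf3r, the receptor of the growth factor G-CSF, was at 1.18 to 1.38 CPM in Xinβ KO/GFP and 0.438 to 3.29 CPM in WT/GFP hearts, with a log2 difference of -0.21 (adjusted p = 0.72 from limma). It was at 1.46 to 2.37 CPM in uninjected Xinβ KO and 0.543 to 0.920 CPM in uninjected WT hearts. There it was called higher in Xinβ KO by limma, and it was listed only through those libraries. Ly6g and Cxcr2, which define mature mouse neutrophils, were listed in neither table, nor were Cxcr1, Fpr1, Il1b and Trem1. Padi4, named after its value was seen, was listed in injected hearts and had a log2 difference of -0.13 (adjusted p = 0.79 from limma).

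In the uninjected hearts 8 of the 25 were listed, and all 8 were called higher in Xinβ KO, where 3.22% of all genes were, but 7 of these were listed only through the Xinβ KO libraries. Slfn4 was at 3.35 to 4.85 CPM in Xinβ KO and at 0.322 to 0.507 CPM in WT hearts. BC100530 was at 2.55 to 8.45 CPM against 0.276 to 0.618 CPM. These are descriptions of the contrast that S100a8 was chosen on.

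Of 13 other genes of secondary and tertiary granules, 7 were listed in injected hearts. Relative to WT/GFP, in Xinβ KO/GFP 3 rose and 1 fell, where 6.5% of all genes were called higher and 6.99% lower. Mmp8, neutrophil collagenase, was at 1.77 to 5.18 CPM in Xinβ KO/GFP and 0 to 0.217 CPM in WT/GFP (log2 difference 1.83, adjusted p = 0.00020 from limma). Hp, for haptoglobin, was at 3.22 to 83.6 CPM against 0.384 to 3.94 CPM (log2 difference 3.01, adjusted p = 0.013 from limma), with groups that overlapped. Hp and Mmp8 were listed only through Xinβ KO/GFP, and of the 4 genes that were not, Mmp9, for gelatinase B and named after its value was seen, rose by 1.05 (adjusted p = 0.0077 from limma), while Cybb, the NADPH oxidase subunit that monocytes and macrophages also express, fell by 1.13 on the log2 scale (adjusted p = 0.0078 from limma). With YAP S127A instead of GFP in Xinβ KO hearts, 3 of the 7 fell and 0 rose, where 6.96% of all genes were called lower. Of these 3, Hp and Mmp8 were listed only through Xinβ KO/GFP, which favoured a fall from it, and the other was Mmp9.

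Few genes of the primary granules, which neutrophil precursors make earliest, were listed. Mpo, Elane, Prtn3 and Ctsg were listed in neither table. Of 8 genes 3 were listed in injected hearts and 2 in uninjected hearts. None of the 3 was called by limma in Xinβ KO/GFP relative to WT/GFP, a count too small to be read against the 6.5% of all genes called higher. Without Xinβ KO/GFP library 2, 1 of them, Serpinb1a, was called higher with YAP S127A in Xinβ KO hearts. Lyz2, the lysozyme of all myeloid cells, was at 24.1 to 32.9 CPM in Xinβ KO/GFP and 23.2 to 51.6 CPM in WT/GFP (log2 difference -0.32, adjusted p = 0.43 from limma). Serpinb1a, an inhibitor of neutrophil proteases, had a log2 difference of -0.20 (adjusted p = 0.39). In uninjected hearts Lyz2 was at 24.2 to 58.2 CPM in Xinβ KO and 23.9 to 28.0 CPM in WT, and without Xinβ KO library 4, 1 of the 2 listed genes, Lyz2, was called higher.

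**Figure D3:**
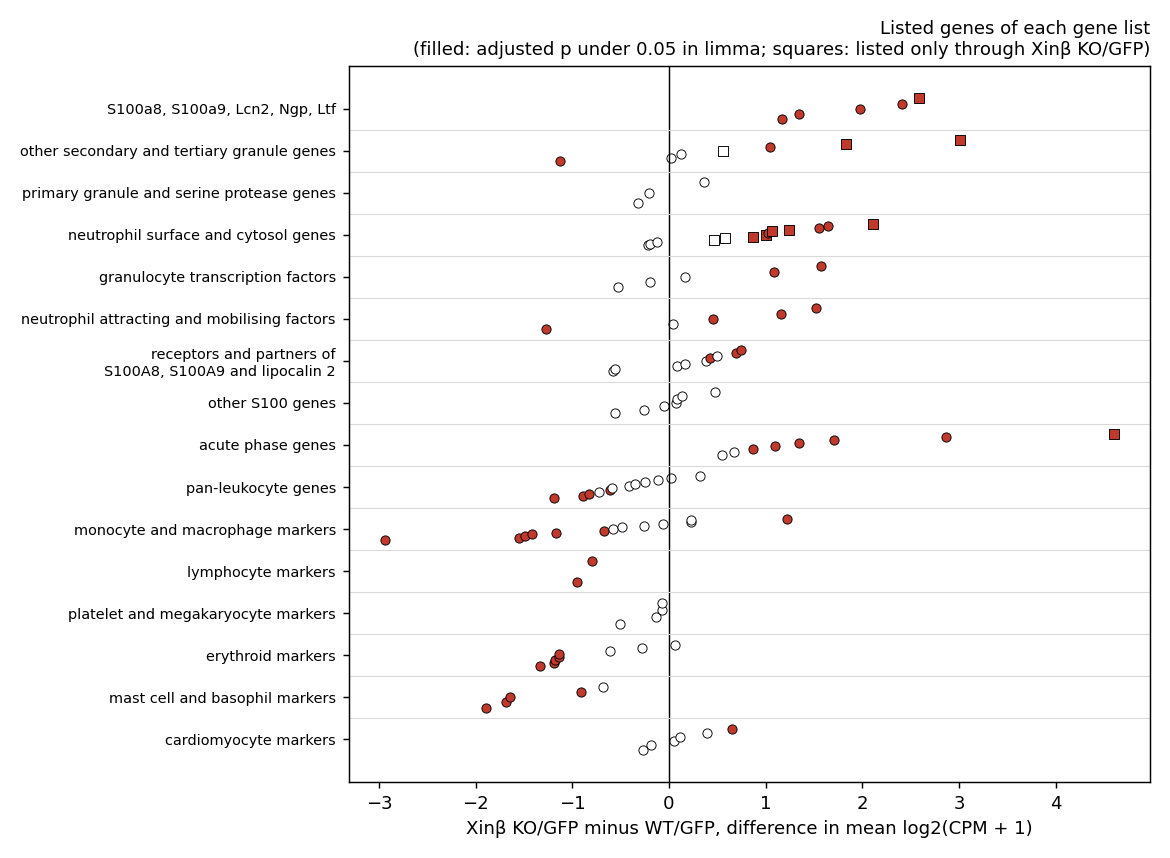
Difference in mean log2(CPM + 1), Xinβ KO/GFP minus WT/GFP (x axis) for each listed gene of 16 gene lists (y axis), filled where the adjusted p from limma is under 0.05 and square where the gene was listed only through Xinβ KO/GFP. The 5 genes and most neutrophil surface genes lie to the right, many of the latter as squares, the 3 primary granule genes lie on both sides of 0, and the pan-leukocyte, macrophage, lymphocyte and mast cell lists mostly to the left, down to -2.94.

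Genes that white cells share were followed in both tables. Of 12 pan-leukocyte genes, all listed in both tables, 0 rose and 4 fell in Xinβ KO/GFP relative to WT/GFP (median log2 difference -0.50), where 6.99% of all genes were called lower. Ptprc, the common leukocyte antigen CD45, was at 1.5 to 4.16 CPM in Xinβ KO/GFP and 5.16 to 10.04 CPM in WT/GFP (log2 difference -1.19, adjusted p = 0.0025 from limma). Laptm5, a lysosomal protein of blood cells, fell by 0.89 (adjusted p = 0.0096 from limma). Summed over the list, the level was 74.0 to 82.8 CPM in Xinβ KO/GFP and 85.7 to 130 CPM in WT/GFP. In uninjected hearts the sum was 65.9 to 84.5 CPM in Xinβ KO and 80.6 to 93.2 CPM in WT, with 0 of the 12 called higher and 1 lower, where 3.22% and 3.48% of all genes were, and 1, Itgam, called higher without Xinβ KO library 4. Itgam and Itgb2, the integrin chains that neutrophils share with other myeloid cells, had log2 differences of 0.79 and 0.45 there and were named after their values were seen. Itgam was listed there only through the Xinβ KO libraries, which favoured a rise.

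Of 13 monocyte and macrophage markers, 6 fell and 1 rose in Xinβ KO/GFP, where 6.99% of all genes were called lower and 6.5% higher. Cx3cr1, the fractalkine receptor of monocytes and resident macrophages, was at 0.468 to 0.785 CPM against 9.24 to 17.2 CPM in WT/GFP (log2 difference -2.94, adjusted p = 1.4e-07 from limma). C1qa, a complement subunit made by macrophages, fell by 1.55 (adjusted p = 0.0016), and Lyve1, which marks a macrophage subset and lymphatic endothelium, rose by 1.22 (adjusted p = 0.015), both from limma. Cx3cr1 was at 0.922 to 2.53 CPM in uninjected Xinβ KO and 9.20 to 12.6 CPM in uninjected WT hearts. With YAP S127A in Xinβ KO hearts, 6 of the 13 rose and 0 fell, where 7.62% of all genes were called higher, and Cx3cr1 was at 8.18 to 12.2 CPM. In these bulk samples, fewer cells of a type and less RNA per cell cannot be told apart, and the same holds for more cells and more RNA in the case of the neutrophil genes.

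Cd79a and Cd79b, the B cell receptor partners and the only listed genes of 8 lymphocyte markers, both fell in Xinβ KO/GFP, by 0.80 and 0.95 on the log2 scale (adjusted p = 0.0025 for each, limma). Of 6 mast cell and basophil markers 5 were listed and 4 fell, where 6.99% of all genes were called lower, among them Cma1 (-1.89, adjusted p = 0.00020) and Mcpt4 (-1.68, adjusted p = 8.0e-05), chymases of mast cells. Of 4 listed platelet markers 0 were called, with Pf4 at -0.50 (adjusted p = 0.085) and Itga2b at -0.07 (adjusted p = 0.91). Haemoglobin genes, a measure of blood in the tissue, fell in Xinβ KO/GFP, Hbb-bs by 1.33 (adjusted p = 0.0057) and Hbb-bt by 1.19 (adjusted p = 0.010), with 5 of 8 listed erythroid markers called lower, against the same 6.99%. The 5 genes were higher in a group in which haemoglobin was lower, and 0 erythroid markers were called in uninjected hearts. Library 4 of WT/GFP had the highest erythroid sum of its group, at 8462 CPM. With YAP S127A in Xinβ KO hearts the 5 genes fell, while 0 of the 8 erythroid markers were called. Their sums were then 1899 to 2111 CPM, against 1244 to 3144 CPM in Xinβ KO/GFP. The part of blood content in these values was not tested.

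**Figure D4:**
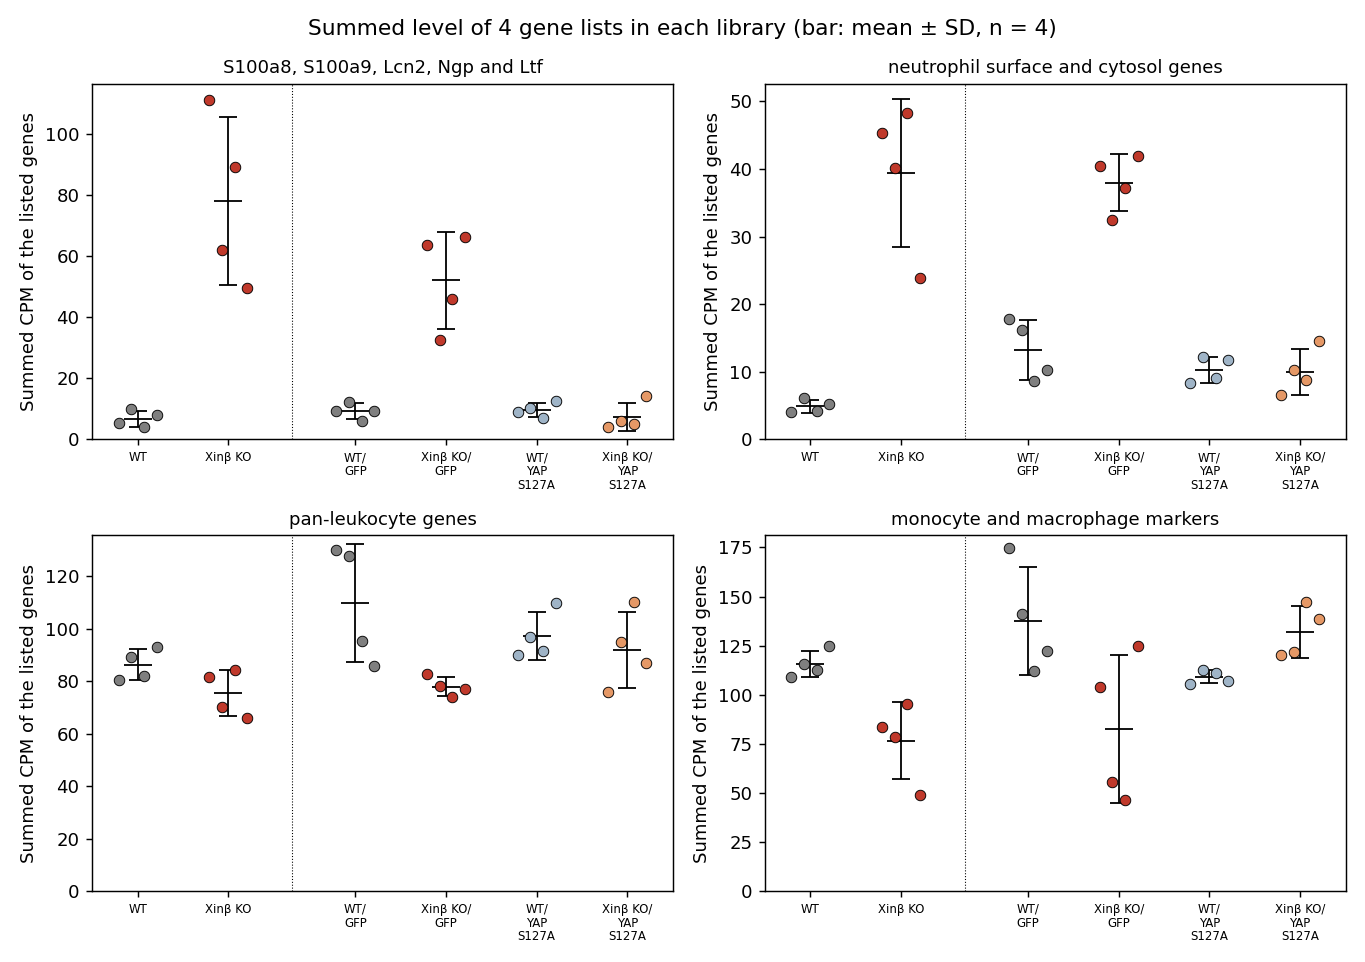
Summed CPM (y axes, from 0) of the 5 listed genes, the listed neutrophil surface and cytosol genes, the pan-leukocyte genes and the monocyte and macrophage markers in each library by group (x axes), with each group's mean ± SD, n = 4. The first 2 sums are high in Xinβ KO and Xinβ KO/GFP, at 49.6 to 111 and 32.5 to 66.1 CPM for the 5 genes, while the other 2 sums are not.

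Among genes that recruit or hold neutrophils, 5 of 13 were listed in injected hearts, and 3 rose and 1 fell in Xinβ KO/GFP, where 6.5% of all genes were called higher and 6.99% lower. Cxcl1, a ligand of the neutrophil receptor CXCR2, was at 2.64 to 10.9 CPM against 0.329 to 1.63 CPM in WT/GFP (log2 difference 1.52, adjusted p = 0.013 from limma). Icam1, an adhesion molecule by which leukocytes cross endothelium, was at 32.3 to 44.1 CPM against 13.1 to 23.8 CPM (log2 difference 1.15, adjusted p = 0.00054 from limma). Cxcl12, the chemokine that retains neutrophils in the bone marrow and is made by stromal cells of many tissues, was at 53.2 to 67.5 CPM against 134 to 158 CPM (log2 difference -1.27, adjusted p = 4.1e-06 from limma). With YAP S127A in Xinβ KO hearts, Icam1 fell by 1.34 (adjusted p = 0.00015) and Cxcl12 rose by 1.39 (adjusted p = 1.3e-06), both from limma, whereas the log2 difference of Cxcl1 was -1.11 (adjusted p = 0.055). Cxcl2, Cxcl3, Cxcl5, Csf3 and Il6 were not listed.

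Among transcription factors of granulocytes, Cebpd and Cebpb rose in Xinβ KO/GFP, by 1.57 (adjusted p = 0.00046) and 1.09 (adjusted p = 0.010), and the other 3 listed ones were not called. Cebpd was at 19.8 to 43.5 CPM in Xinβ KO/GFP and 8.16 to 12.01 CPM in WT/GFP, and both are also induced by inflammation in many cells. Cebpe, the factor of secondary granule genes, was not listed. Of 8 listed acute phase genes, 6 rose, against 6.5% of all genes, the highest in difference being Serpina3n, a secreted protease inhibitor, at 2.94 to 94.5 CPM against 0 to 0.167 CPM (log2 difference 4.60, adjusted p = 0.00035 from limma), followed by complement C3 (2.86, adjusted p = 0.045). Serpina3n was listed only through Xinβ KO/GFP, and 5 of the other 7 rose. The Xinβ KO/GFP libraries were widely spread in both, with C3 at 72.7 ± 77.7 CPM (SD, n = 4).

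Of 10 receptors and partners of calprotectin and lipocalin 2, 9 were listed, and 3 rose and 0 fell in Xinβ KO/GFP, where 6.5% of all genes were called higher. Without 1 library or another, 2 to 4 were called higher and 0 to 1 lower. Ager, the gene of RAGE, was at 3.29 to 4.71 CPM against 1.00 to 2.90 CPM (log2 difference 0.74, adjusted p = 0.027 from limma), and Cd36, a fatty acid transporter that also binds the S100A8 and S100A9 complex, rose by 0.70 (adjusted p = 0.0020). Of 7 other listed S100 genes, 0 were called in this comparison. That count is too small to be read against the 6.5% of all genes called higher and 6.99% called lower. S100a1, the S100 protein of heart muscle, differed by 0.09 (adjusted p = 0.77) and S100a11 by -0.05 (adjusted p = 0.93), both from limma. Both genes lie on chromosome 3, as does S100a8. S100a4, named after its values were seen, was at 1.76 to 3.4 CPM in Xinβ KO/GFP and 0.438 to 2.27 CPM in WT/GFP (log2 difference 0.48, adjusted p = 0.20 from limma), and at 3.10 to 7.09 CPM in uninjected Xinβ KO and 1.32 to 2.02 CPM in uninjected WT hearts. Cardiomyocyte markers were high in every library, with Myh6 at 23000.6 CPM or more, and of 6 only Tnnt2 was called (0.65, adjusted p = 0.0013 from limma).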

How the data were processed

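Poly(A) RNA of mouse heart was sequenced in 24 strand-specific libraries. Per the labels and the study's methods, the authors used Cutadapt 2.3 for trimming, HISAT2 2.1.0 for alignment to the GRCm38 genome and StringTie 1.3.4 to assemble and quantify transcripts, with gene counts derived from its coverage, and normalised with edgeR 3.26.1. The deposited values are a CPM signal on scaled library sizes, in 1 table for uninjected and 1 for injected hearts, and they were read as whole multiples of 1 read (tolerance 0.1 read). Columns summed to 942566 to 1134439. The design assumed normalised values and kept log2 tests for them.

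Ensembl identifiers were matched to symbols of GENCODE M21 (15655 of 15667 and 15314 of 15327 genes). Groups were compared by limma 3.58.1 (R 4.3.3) with a mean-variance trend on log2(CPM + 1), with 1 model of 4 groups for the injected hearts, and p-values were adjusted by the Benjamini-Hochberg method over all listed genes, with a threshold of 0.05. The study's methods name Fisher's exact test and do not state whether the spread between replicates entered it. On simulated data, 197 of 200 genes changed by 1 on the log2 scale were recovered for Xinβ KO/GFP against WT/GFP (15327 genes), with 8 false calls. For uninjected hearts 198 were recovered, with 12 false calls (15667 genes). The changed genes were drawn only from genes with many reads, and all genes were given the same low spread. Recovery of genes as low and as variable as Lcn2, Ngp and Ltf was therefore not tested. As alternatives the recovered reads were tested with edgeR 4.0.16 or DESeq2 1.42.0, and the main test was repeated with a pseudocount of 0.1, a filter on low values, a replicate block and leaving out each library. Promoters were taken from RefSeq tables.

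Genes, lists and tests were chosen with earlier results of these data known. Named were the 6 genes, Xirp2, up to 2 called genes per list and direction with the largest change in Xinβ KO/GFP against WT/GFP (or, with fewer than 2 called, the 2 highest in mean value), defining markers, and the 5 genes most correlated with S100a8 in each table.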

Additional observations from a re-analysis of the deposited data

Results flagged for a closer look

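The response to YAP S127A differed between Xinβ KO and WT hearts, in a limma test of the interaction with adjusted p under 0.05, for 23 of the 40 named genes and for 1150 of all 15327 genes. Most of the named genes were picked for their change between Xinβ KO/GFP and WT/GFP, and the interaction uses the same libraries, so both this count and the signs below follow in part from that choice and support nothing. On the log2 scale, a negative value means that YAP S127A lowered the gene more, or raised it less, in Xinβ KO than in WT hearts. It was -2.75 for S100a8, -2.27 for S100a9, -2.79 for Lcn2, -1.51 for Ngp and -1.67 for Ltf. Among genes named for a rise in Xinβ KO/GFP, those called had a negative value, with Mmp8 at -1.90, Slfn4 at -2.37, BC100530 at -1.94, Cebpd at -1.51, Icam1 at -0.97, Ager at -1.52, Serpina3n at -4.58 and C3 at -4.40, and with Tnnt2 of heart muscle at -0.88. Lcn2, Mmp8, Slfn4 and Serpina3n were listed only through Xinβ KO/GFP, which favoured a negative value. Among genes named for a fall in Xinβ KO/GFP, those called had a positive value, with Ptprc at 1.16, Laptm5 at 1.10, Cx3cr1 at 2.88, C1qa at 1.62, Cd79b at 0.89, Cd79a at 0.73, Cma1 at 1.74 and Mcpt4 at 1.58, and with Cxcl12 at 1.78. Hp, Cebpb, Cxcl1, Cd36 and Lyve1, named for a rise, and Cybb, Hbb-bs and Hbb-bt, named for a fall, were not called.

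In 17 of 230 groups of 4 values, 1 library stood apart from the other 3 by Dixon's test, against 11.5 that chance gives. None of the 5 alarmin and granule genes was among them. Library 3 of uninjected Xinβ KO stood apart in 3 genes, each time as the highest of its group. These were Hp of the granule list at 20.9 CPM, and Serpina3n and C3 of the acute phase list at 46.0 and 43.0 CPM. Library 3 was also the highest for Lcn2 but not for the other 4 alarmin and granule genes. In uninjected hearts Ager stood at 4.22 CPM in Xinβ KO library 2, and Icam1 at 11.1 CPM in WT library 3. In Xinβ KO/GFP, Cd79b stood at 0.196 and Tnnt2 at 10951 CPM in library 2, Cma1 at 0.351 CPM in library 3 and Mcpt4 at 0.110 CPM in library 4. In WT/GFP, Cx3cr1 stood at 17.2 CPM in library 1, and Hbb-bs at 2579.9 and Hbb-bt at 1333 CPM in library 4. In WT/YAP S127A, BC100530 stood at 1.84 and S100a11 at 123 CPM in library 4, Ptprc at 6.27 CPM in library 2 and Mcpt4 at 3.12 CPM in library 1. In Xinβ KO/YAP S127A, Ager stood at 1.94 CPM in library 3.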

How the results depend on the processing

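The rise of S100a8, S100a9 and Lcn2 in Xinβ KO/GFP, their lower level in Xinβ KO/YAP S127A and their interaction kept direction and call in every fit that held them. A filter of 1 CPM in 8 of 16 injected libraries removed Lcn2. In uninjected hearts 1049 genes were called, 1958 by DESeq2, 386 with the replicate block and 381 to 2102 without a library. Same-numbered libraries correlated at -0.191 to 0.0978 there and at -0.157 to 0.119 in injected hearts (1 of 24 pairings over 0.1). The replicate numbers therefore did not mark pairs. Litter was not in the models, and litters shared by libraries of other numbers were not tested. For Xinβ KO/YAP S127A minus WT/GFP 4 genes were called, 27 by DESeq2 and 2 to 5 without a library. Between WT/YAP S127A and WT/GFP 0 were called, 13 by DESeq2 and 0 to 1 without a library. The interaction was called for 1150 genes, for 746 with the block and for 661 to 1524 without a library. Of the 5 genes, 3 were called for it with the block (Ltf at an adjusted p of 0.052, Ngp at 0.058, limma) and 3 to 5 without a library, and Ltf was lost under a pseudocount of 0.1 (0.058, limma) and in edgeR (0.057). Xinβ KO/GFP against WT/GFP gave 2068 genes, 1313 to 2822 without a library (4 to 5 of the 5 genes). Xinβ KO/YAP S127A minus Xinβ KO/GFP gave 2234 genes, 1543 to 2563 without a library (5 of 5 in each). Differences near 0 turned sign. For Xinβ KO/YAP S127A against WT/GFP, S100a8 was at 0.0229 in edgeR and 0.0215 in DESeq2, and without a library S100a8 ran from -0.54 to 0.19, Lcn2 from -0.0315 to 0.45 and Ltf from -0.47 to 0.00034. For WT/YAP S127A against WT/GFP, Ngp was at -0.0346 in edgeR and -0.0320 in DESeq2, and without a library Ngp ran from -0.17 to 0.16 and Ltf from -0.14 to 0.33. The cause was not tested. Estimates of low genes were larger under a pseudocount of 0.1, edgeR and DESeq2, since adding 1 shrinks them. Lcn2 was at 4.27, 4.65 and 4.68 in Xinβ KO/GFP minus WT/GFP and at -4.93, -5.06 and -5.10 in the interaction, and Ltf at 2.08, 1.95 and 1.96 and at -2.71, -2.61 and -2.62. With YAP S127A in Xinβ KO hearts, Lcn2 was at -3.80, -3.69 and -3.70, Ngp at -2.03, -2.30 and -2.31 and Ltf at -2.32, -2.45 and -2.46. In uninjected hearts, where no test is given, 10 differences moved by more than the SD between libraries under these settings, to 4.60 for S100a8 (pseudocount only), 4.10 to 4.75 for Lcn2, 3.13 to 3.28 for Ngp and 2.97 to 3.13 for Ltf. Among single genes in the tested comparisons, 4 values lost their call under an alternative. A level under about 3 reads, 0.0988 to 0.197 CPM by library, could not be told from 0, which limits Lcn2, Ngp and Ltf in WT hearts.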
